A study of Mus musculus with 49 samples.

Results

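The MPP:MA9 leukaemias are acute myeloid leukaemias that grew in mice from normal multipotent progenitors (MPP) carrying MLL-AF9 (MA9), a fusion oncogene. All 6 bulk MPP:MA9 samples were compared with all 6 normal MPP samples of the series, and the genes described are the 12663 of 38253 in the table whose mean over these 12 samples was at least 1 FPKM. FPKM is a read count scaled by transcript length and by library size. The rule used no difference between the groups.

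All samples came from female C57BL/6J mice, which the labels give as wild type and 6 to 12 weeks old. Normal MPP were sorted from bone marrow as lineage-negative cells with Sca-1, c-Kit and CD34 but without CD150. For the leukaemias, sorted MPP had been infected with a retrovirus that drives MA9 and GFP from 1 transcript. They were cultured with SCF, IL-3 and IL-6 through repeated infection and sorted again for GFP. The GFP-positive cells were then injected directly into sublethally irradiated recipients. The labels give bone marrow as tissue for both groups, whereas the methods of the study describe GFP-positive leukaemia cells sorted from the spleen. The leukaemia cells were taken when the recipients had fallen ill, so these mice may have been older at sampling than the labels give. The recipients, the irradiation, the virus, the culture, the GFP sorts, the time after transplant and the tissue therefore all go with the leukaemia group. Their shares in any difference cannot be told apart. Every sample stands for a different mouse, and the sources do not say which mice shared an experiment. The MA9 transgene itself was not analysed here.

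MPP stand between the stem cell and the progenitors that are committed to single lineages. They have lost lasting self-renewal, still carry the receptor Kit, gain the receptor Flt3 in part, and already transcribe some genes of the lymphoid and myeloid lineages at a low level. MLL is a histone methyltransferase that maintains Hox gene expression, and AF9 belongs to complexes that promote transcript elongation. The fusion of both keeps Hoxa genes and Meis1 on, and in mice it gives leukaemias with features of granulocytes and monocytes. A myeloid cell normally fills its primary granules first, among others with myeloperoxidase, and makes the proteins of the later granules as it nears the mature neutrophil.

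A sample had from 16445 to 17852 genes with a value over 0. Total read numbers are unknown, and the depth relative to the median of the 12 samples, read from the step that 1 read makes in low genes, was between 0.691 and 1.03 in MPP:MA9 and between 0.978 and 1.19 in MPP. Mitochondrial genes held 12.7% to 18.7% of the summed FPKM in MPP:MA9 and 15.2% to 27.2% in MPP. Samples of 1 group correlated across genes on the log2 scale with r between 0.92 and 0.971 in MPP:MA9 and between 0.942 and 0.979 in MPP, and samples of different groups with r between 0.699 and 0.818. No pair of samples held identical values.

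Levels were compared as log2(FPKM + 1), and a gene was called when its adjusted p in limma was below 0.05 and its log2 change above 1 in size. Changes are given as MPP:MA9 minus MPP with their SE, from 6 samples a group. Of the 12663 genes, 3519 were called (27.8%), of which 1714 were higher (13.5%) and 1805 lower (14.3%) in MPP:MA9. The groups did not overlap in 5163 genes (40.8%). In 2436 genes (19.2%) every leukaemia lay above every MPP sample, and in 2727 (21.5%) every leukaemia lay below. The median change of all tested genes was -0.11. Of the genes called, 1502 higher and 1611 lower ones were protein coding. These shares are the background for the counts of list members below. The filter had no gap around it, since Rtn4r and Rsph1 lay just inside it at a mean of 1.0000 FPKM and Tmem17 and Obsl1 just outside at 0.9983 and 0.9992. A gene near 0 in 1 group could pass the filter through the other group alone. The direction of its call is then no independent result, which holds for all lists below. In bulk RNA, fewer cells of a type and less RNA per cell cannot be told apart, which holds for all results here.

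**Figure D1:**
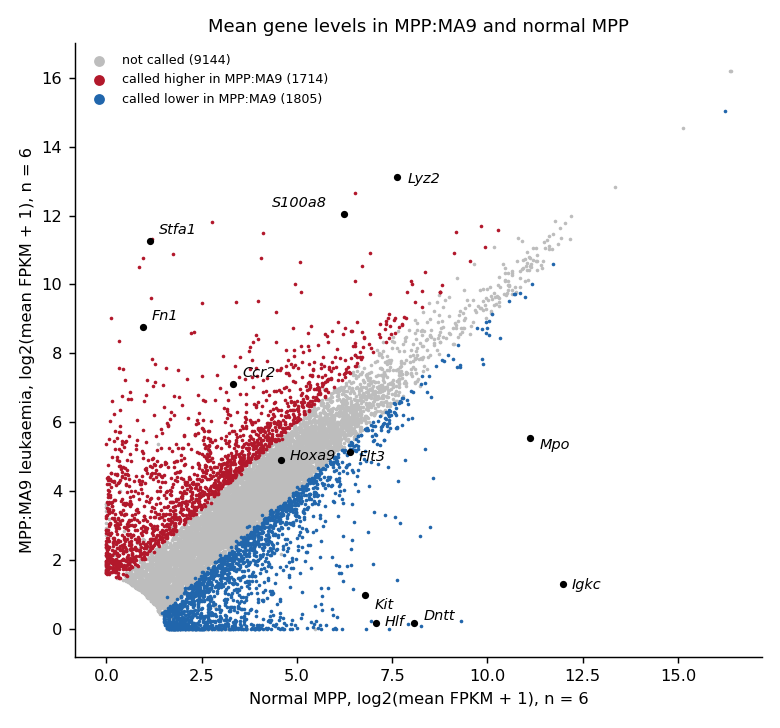
Each point is 1 of the 12663 genes, with its mean level over 6 normal MPP samples on the x axis and over 6 MPP:MA9 leukaemias on the y axis, both as log2(mean FPKM + 1). Red points (1714) were called higher and blue points (1805) lower in MPP:MA9, and 12 genes of the text are marked, with Lyz2 and Stfa1 far above the diagonal and Igkc, Dntt, Hlf and Kit far below it.

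The 5 promoters printed here belong to myeloid genes and were chosen because they hold the same 8 letters. S100a8, Mmp8, Olfm4 and Itgb2l encode late granulocyte proteins and were called higher, and Mpo encodes the main primary granule enzyme and was called lower. Each line gives the 250 bases before the transcript start, 5′ to 3′ in the direction of the gene, with GAGGAAGT or its reverse complement ACTTCCTC in capitals. The sequences are from RefSeq, build GRCm38.p6, where S100a8 lies at chr3:90668821-90669070 (plus strand), Mmp8 at chr9:7558179-7558428 (plus strand), Olfm4 at chr14:80000052-80000301 (plus strand), Itgb2l at chr16:96443615-96443864 (minus strand) and Mpo at chr11:87793534-87793783 (plus strand).
S100a8: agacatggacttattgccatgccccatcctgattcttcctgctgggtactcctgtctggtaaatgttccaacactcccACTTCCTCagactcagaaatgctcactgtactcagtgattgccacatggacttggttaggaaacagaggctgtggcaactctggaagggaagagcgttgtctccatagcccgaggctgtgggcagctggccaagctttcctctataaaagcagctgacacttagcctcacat
Mmp8: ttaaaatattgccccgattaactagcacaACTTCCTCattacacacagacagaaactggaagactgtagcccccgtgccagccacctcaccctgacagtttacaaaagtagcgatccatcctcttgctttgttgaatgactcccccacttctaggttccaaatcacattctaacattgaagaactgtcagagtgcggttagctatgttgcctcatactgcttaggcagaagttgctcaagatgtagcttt
Olfm4: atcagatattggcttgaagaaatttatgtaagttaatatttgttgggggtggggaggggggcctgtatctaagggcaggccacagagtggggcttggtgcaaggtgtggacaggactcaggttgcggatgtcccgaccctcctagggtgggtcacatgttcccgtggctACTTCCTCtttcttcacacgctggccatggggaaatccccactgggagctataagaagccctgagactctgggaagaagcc
Itgb2l: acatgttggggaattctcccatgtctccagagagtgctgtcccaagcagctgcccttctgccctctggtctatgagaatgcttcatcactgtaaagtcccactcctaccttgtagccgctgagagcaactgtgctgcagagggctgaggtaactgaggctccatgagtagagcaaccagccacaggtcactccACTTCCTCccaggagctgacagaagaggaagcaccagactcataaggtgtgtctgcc
Mpo: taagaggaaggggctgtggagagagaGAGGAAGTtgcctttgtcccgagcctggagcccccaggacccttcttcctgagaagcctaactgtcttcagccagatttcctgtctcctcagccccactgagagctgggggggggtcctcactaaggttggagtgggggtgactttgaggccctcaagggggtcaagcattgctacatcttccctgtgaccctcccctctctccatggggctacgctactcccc

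GAGGAAGT is a form of the ETS motif that PU.1, a myeloid transcription factor, prefers. It was searched on both strands of these windows and stood in 5.05% of 1228 matched genes called higher, in 2.46% of 1300 called lower, in 3.02% of 6658 tested but not called and in 2.79% of all 27025 genes of the promoter table. Of the 20 late granulocyte genes 18 had a promoter in that table, and 4 held the letters. TTNNGNAAT, a loose C/EBP form, stood in 10.3% of genes called higher, 9.46% of those called lower, 7.46% of those not called and 11.7% of all. The GATA letters AGATAA stood in 8.55% of genes called higher, 10.2% of those called lower, 6.56% of those not called and 11.4% of all. A match is a run of letters and no measured binding, and genes with several listed starts counted once.

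The genes that define the MPP as a stem and progenitor cell were low in the leukaemias. Of 17 tested genes for stem and progenitor surface and signalling proteins, 13 were called lower and 0 higher, with a median change of -2.94. Of 19 tested stem cell transcription regulators, 13 were called lower and 1 higher, with a median of -1.87. The normal samples had Kit, Ly6a and Cd34, the genes of the antigens they were sorted by, and Slamf1, which encodes CD150, did not exceed 0.3 FPKM in them.

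Kit, the receptor for stem cell factor, ranged from 0.59 to 2.04 FPKM (median 0.8) in MPP:MA9 and from 91.5 to 128 FPKM (median 111) in MPP, a change of -5.82 ± 0.15 (adjusted p = 1.58e-12). No leukaemia came near the lowest MPP sample. Ly6a, which encodes Sca-1, ranged from 3.1 to 17.2 FPKM (median 4.05) in MPP:MA9 and from 94.5 to 147 FPKM (median 109) in MPP, and its change was -4.27 ± 0.30 (adjusted p = 2.91e-08). Leukaemia 2 held the highest Ly6a and the highest Kit of the 6. Cd34 ranged from 4.89 to 65 FPKM (median 20.2) in MPP:MA9 and from 207 to 253 FPKM (median 227) in MPP and changed by -3.37 ± 0.46 (adjusted p = 2.08e-05). Flt3, the receptor that marks the MPP among the early cells, overlapped between the groups. It ranged from 6.79 to 107 FPKM (median 20.4) in MPP:MA9 and from 77.8 to 92 FPKM (median 81.4) in MPP, and its change was -1.76 ± 0.44 (adjusted p = 0.00335). Leukaemia 4 alone was above every MPP sample.

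Among the other receptors, Cd27, a member of the TNF receptor family, ranged from 4.61 to 9.93 FPKM (median 7.33) in MPP:MA9 and from 179.9 to 228 FPKM (median 209) in MPP, and it changed by -4.66 ± 0.14 (adjusted p = 8.35e-12). Angpt1, which encodes the ligand angiopoietin, ranged from 0.29 to 2.42 FPKM (median 1.19) in MPP:MA9 and from 42.7 to 65.1 FPKM (median 58.4) in MPP and changed by -4.70 ± 0.21 (adjusted p = 3.13e-10). Procr (the protein C receptor) and Robo4 (a roundabout receptor) stayed at or below 0.47 FPKM in each leukaemia, where the lowest MPP sample had 5.04 and 3.92 FPKM. Their changes were -2.94 ± 0.18 and -2.65 ± 0.15. Esam, an adhesion molecule, was listed at 0 in all 6 leukaemias and at 3.26 to 5.57 FPKM (median 4.03) in MPP.

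Hlf, a leucine zipper transcription factor of stem cells (chromosome 11, 90197849 to 90252231 in build NCBIM37), gave the largest fall among these regulators. It ranged from 0.04 to 0.27 FPKM (median 0.1) in MPP:MA9 and from 85.5 to 179 FPKM (median 133) in MPP, a change of -6.86 ± 0.16 (adjusted p = 9.20e-13). Mycn, the Myc relative of stem cells, did not exceed 0.05 FPKM in a leukaemia and was at 8.49 to 12.7 FPKM (median 10.1) in MPP, a change of -3.48 ± 0.13 (adjusted p = 5.02e-11). Myct1 was likewise at or below 0.03 FPKM in each leukaemia against 12.9 to 22.4 FPKM (median 17.3) in MPP. Erg, an ETS factor, was lower without being lost. It ranged from 21.4 to 47.2 FPKM (median 31.9) in MPP:MA9 and from 81.8 to 114 FPKM (median 102) in MPP and changed by -1.62 ± 0.16 (adjusted p = 6.84e-07). Gata2 ranged from 2.23 to 11.9 FPKM (median 9.94) in MPP:MA9 and from 29.2 to 43.1 FPKM (median 34.1) in MPP, with a change of -2.17 ± 0.32 (adjusted p = 3.68e-05). The 1 regulator of this list called higher was Mllt3, the mouse AF9 gene, which ranged from 32.3 to 235 FPKM (median 41.9) in MPP:MA9 and from 17.6 to 31.2 FPKM (median 20) in MPP and changed by 1.48 ± 0.39 (adjusted p = 0.00477). Its level in leukaemia 2, 235 FPKM, and in leukaemia 4, 96.2 FPKM, stood above the other 4. Whether reads of the MA9 transcript entered the Mllt3 values was not tested.

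Mecom, the Evi1 gene, which the study follows, did not separate the groups. Its levels in leukaemias 1 to 6 were 1.25, 62, 9.92, 0.3, 43.4 and 53.4 FPKM, against 25.6 to 50.1 FPKM (median 31.7) in MPP. The change of -1.44 ± 0.87 (adjusted p = 0.161) was within this spread. Leukaemias 1 and 4 were far below every MPP sample, and leukaemias 2 and 6 above all of them.

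Further falls among the 12 largest of the comparison were of the same order. Gpr56 and Eltd1, both adhesion receptors coupled to G proteins, ranged from 269 to 337 FPKM (median 294) and 306 to 421 FPKM (median 364) in MPP to 1.72 to 13.2 FPKM (median 3.41) and 1.7 to 13.2 FPKM (median 5.75) in MPP:MA9. Their changes were -5.81 ± 0.35 and -5.77 ± 0.33. Rab38 is a small GTPase of lysosome-related organelles and changed by -5.64 ± 0.12 (adjusted p = 3.47e-13). Gimap6, a GTPase of lymphocytes, changed by -5.43 ± 0.23 (adjusted p = 1.33e-10). Rgs1, a regulator of G protein signals, changed by -5.36 ± 0.43 (adjusted p = 1.09e-07), and its MPP levels spread widely, at 17.6 to 144 FPKM (median 49.9).

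The lymphoid genes that MPP transcribe were lower as well. Of 16 tested lymphoid priming genes, 11 were called lower and 0 higher, and the median change was -2.02. Dntt, the terminal transferase that adds bases to antigen receptor joints (chromosome 19, 41103765 to 41134013), gave the smallest adjusted p of the genes named. It ranged from 0.04 to 0.27 FPKM (median 0.1) in MPP:MA9 and from 236 to 308 FPKM (median 268) in MPP, a change of -7.91 ± 0.09 (adjusted p = 6.23e-16). The SD between samples was small on both sides of this gap. Rag2, a subunit of the V(D)J recombinase, ranged from 0 to 0.58 FPKM (median 0.02) in MPP:MA9 and from 6.69 to 9.81 FPKM (median 7.88) in MPP and changed by -3.02 ± 0.15 (adjusted p = 1.13e-09). Sox4, an HMG-box factor of early B cells, changed by -3.56 ± 0.13 (adjusted p = 3.80e-11), although 55% of its 31-base windows also occur in another gene. Bcl11a, a zinc finger factor needed for lymphoid fate, ranged from 0.4 to 4.9 FPKM (median 2.66) in MPP:MA9 and from 61.1 to 80.3 FPKM (median 66.2) in MPP and changed by -4.44 ± 0.29 (adjusted p = 1.27e-08).

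The leukaemias differed among themselves in this group. Il7r, the interleukin 7 receptor, was at 3.09 FPKM in leukaemia 4 and at most 0.2 FPKM in the other 5. MPP held 3.03 to 8.38 FPKM (median 6.39), and the change was -2.27 ± 0.34 (adjusted p = 5.33e-05). Satb1, a chromatin organiser of lymphocytes, was at 111 FPKM in leukaemia 4 and from 2.17 to 21.7 FPKM in the others, with 109.8 to 158 FPKM (median 139) in MPP and a change of -3.37 ± 0.61 (adjusted p = 0.000278). Il12a, an interleukin subunit, was at 24 FPKM in leukaemia 4, below the lowest MPP sample, and its change was -2.95 ± 0.34 (adjusted p = 4.66e-06). Ly6d, a marker of B-lineage commitment, did not exceed 0.17 FPKM in a leukaemia and changed by -3.25 ± 0.29 (adjusted p = 3.39e-07). Leukaemia 4 held the highest level for 7 of these 16 genes and leukaemia 6 for 6 of them.

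**Figure D2:**
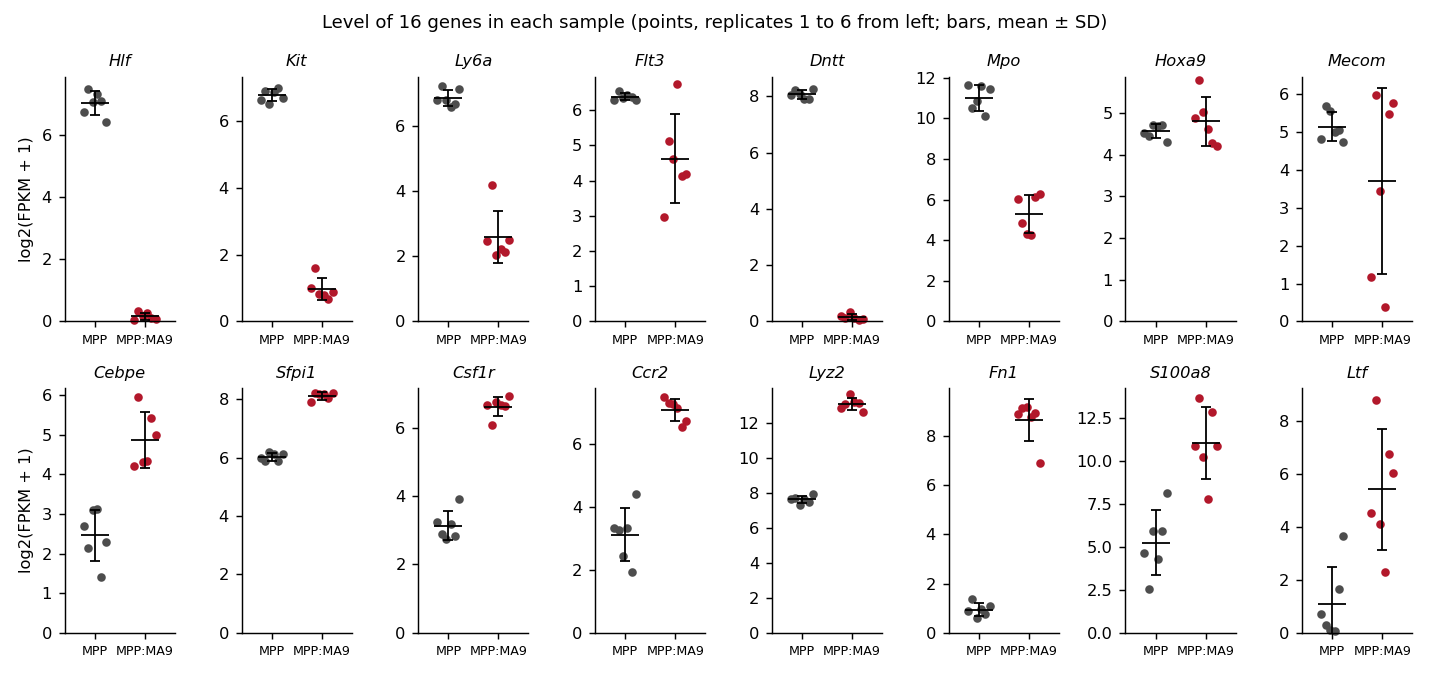
Level of 16 genes as log2(FPKM + 1), with 1 point per sample for the 6 normal MPP (grey) and the 6 MPP:MA9 leukaemias (red), replicates 1 to 6 from left to right, and bars at the mean ± SD of these log2 levels. Hlf, Kit, Ly6a, Dntt and Mpo lie lower in every leukaemia, Cebpe, Sfpi1, Csf1r, Ccr2, Lyz2 and Fn1 higher, whereas Flt3, Hoxa9, Mecom, S100a8 and Ltf overlap.

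The genes of late granulocytes were higher in the leukaemias. All 20 tested members of this list were called higher, with a median change of 5.56. Every leukaemia lay above every MPP sample in 12 of the 20, against 19.2% of all tested genes. The summed level of the list ran from 1507 to 66651 FPKM in MPP:MA9 and from 37.2 to 926 in MPP. The sum was highest in leukaemia 2, and the lowest leukaemia, number 4, still lay above the highest MPP sample. MPP replicate 6 had the highest value of the MPP samples for S100a8, S100a9, Ngp, Camp, Ltf and Lcn2.

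Lcn2, which binds bacterial siderophores, ranged from 263 to 11169 FPKM (median 938) in MPP:MA9 and from 1.08 to 65.2 FPKM (median 4.61) in MPP, and its change was 7.35 ± 0.93 (adjusted p = 9.73e-06). Chi3l3, the chitinase-like protein Ym1, ranged from 263 to 12410 FPKM (median 2181) in MPP:MA9 and from 1.88 to 14.4 FPKM (median 2.69) in MPP, and changed by 8.19 ± 0.86 (adjusted p = 1.70e-06). S100a8 and S100a9 encode the subunits of calprotectin. S100a8 ranged from 214 to 12783 FPKM (median 1878) in MPP:MA9 and from 4.93 to 283 FPKM (median 41.3) in MPP, a change of 5.79 ± 0.98 (adjusted p = 0.000142), and S100a9 ranged from 303 to 17584 FPKM (median 3230.1) in MPP:MA9 and from 4.64 to 379 FPKM (median 28.3) in MPP, a change of 6.58 ± 1.07 (adjusted p = 9.91e-05). In both, leukaemia 4 was below MPP replicate 6, so that the groups overlapped. Ngp, a neutrophil granule protein, ranged from 49.7 to 6373 FPKM (median 699) in MPP:MA9 and from 0.62 to 74.8 FPKM (median 1.89) in MPP, and it was called higher. Camp, the cathelicidin precursor, and Ltf, lactoferrin, changed by 6.11 ± 1.07 and 4.33 ± 0.93.

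Mmp8, the neutrophil collagenase, was above every MPP sample in each leukaemia, from 52 to 749 FPKM (median 107) in MPP:MA9 and from 0.23 to 4.81 FPKM (median 0.37) in MPP, a change of 6.03 ± 0.58 (adjusted p = 6.67e-07). Fpr2, a formyl peptide receptor, ranged from 70.3 to 581 FPKM (median 114) in MPP:MA9 and from 0.08 to 0.96 FPKM (median 0.165) in MPP, with a change of 6.72 ± 0.41 (adjusted p = 6.67e-09). Olfm4 and Itgb2l, whose promoters are printed above, changed by 5.85 ± 0.52 and 3.42 ± 0.68.

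The genes of the primary granules were mostly not called. Of 6 tested, 1 was called lower (16.7%, against 14.3% of all tested genes) and 0 higher, with a median change of -0.85. Mpo, myeloperoxidase (chromosome 11, 87607083 to 87617915), was the called member and ranged from 18.2 to 76.4 FPKM (median 46.5) in MPP:MA9 and from 1095 to 3178 FPKM (median 2315) in MPP, a change of -5.71 ± 0.40 (adjusted p = 2.69e-08). Elane, neutrophil elastase, ranged from 84.6 to 1322 FPKM (median 543) in MPP:MA9 and from 42.7 to 624 FPKM (median 393) in MPP, and its change was 0.65 ± 0.68 (adjusted p = 0.415). Prtn3, proteinase 3, ranged from 335 to 730.1 FPKM (median 488) in MPP:MA9 and from 195 to 538 FPKM (median 357) in MPP and had a change of 0.55 ± 0.24 (adjusted p = 0.0615). Ms4a3 had a change of -1.03 ± 0.83 (adjusted p = 0.297), and its leukaemia levels reached from 0.22 FPKM in leukaemia 4 to 83.3 FPKM in leukaemia 5. Prtn3 and Elane overlapped between the groups, and Mpo did not.

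The stefins, inhibitors of cysteine proteases that mouse neutrophils carry in a gene cluster, held the largest rises of the whole comparison. Of 9 tested stefins and cystatins, 8 were called higher and 1 lower, with a median change of 9.04. Stfa1 (chromosome 16, 36277213 to 36285457) ranged from 262 to 6116 FPKM (median 2092) in MPP:MA9 and from 0 to 2.51 FPKM (median 1.1) in MPP, a change of 9.72 ± 0.58 (adjusted p = 5.74e-09). Stfa2l1 (from 36156897), BC100530 (from 36359468), Stfa2 (from 36404037) and Stfa3 (from 36450623) lie on the same chromosome within this cluster (NCBIM37), and their changes were 9.04 ± 0.78, 9.22 ± 0.75, 9.05 ± 0.82 and 8.38 ± 0.54. Leukaemia 4 had the lowest level of all 5. Because 63% of the windows of Stfa1, 50% of Stfa2l1 and 45% of BC100530 also occur in another gene, reads could be split among them and the single values are uncertain. Stfa3 shared 0% and rose as well, from 55.4 to 1075 FPKM (median 406) in MPP:MA9 and from 0 to 0.3 FPKM (median 0) in MPP.

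The genes of monocytes and macrophages were higher as well, with summed levels of a narrower range. Of 23 tested, 20 were called higher and 0 lower, with a median change of 3.48. In 19 of the 23 every leukaemia lay above every MPP sample, against 19.2% of all tested genes. Their summed level ran from 10249 to 16153 FPKM in MPP:MA9 and from 322 to 603 in MPP. Lyz2, lysozyme M, ranged from 6274 to 12733 FPKM (median 8817) in MPP:MA9 and from 158 to 240.1 FPKM (median 200.2) in MPP, a change of 5.46 ± 0.16 (adjusted p = 5.33e-12), and had the largest rise in mean FPKM of all genes with a symbol that separated the groups. Csf1r, the macrophage growth factor receptor, ranged from 67 to 122 FPKM (median 101) in MPP:MA9 and from 5.69 to 14.2 FPKM (median 7.3) in MPP and changed by 3.48 ± 0.19 (adjusted p = 2.66e-09). Leukaemia 2, the highest for late granulocyte genes, had the lowest Csf1r. Ccr2, the receptor that brings monocytes out of the marrow, ranged from 91.8 to 176 FPKM (median 144) in MPP:MA9 and from 2.84 to 20.1 FPKM (median 8.77) in MPP and changed by 3.95 ± 0.33 (adjusted p = 1.57e-07). F13a1, a coagulation factor subunit of monocytes, changed by 4.10 ± 0.27 (adjusted p = 1.75e-08). Lgals3, galectin 3, ranged from 324 to 434 FPKM (median 402) in MPP:MA9 and from 3.12 to 5.1 FPKM (median 4) in MPP and changed by 6.33 ± 0.11 (adjusted p = 6.24e-14). Emr1, which encodes F4/80, changed by 4.95 ± 0.16 (adjusted p = 1.24e-11). Ly6c2 changed by 3.63 ± 0.28 (adjusted p = 7.75e-08), with 54% of its windows shared with another gene.

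Several of the largest rises lay outside these lists. Hpgd, which breaks down prostaglandins, ranged from 452 to 990.1 FPKM (median 842) in MPP:MA9 and from 0.64 to 1.87 FPKM (median 1.12) in MPP, a change of 8.40 ± 0.20 (adjusted p = 9.20e-13). Apoc2, the cofactor of lipoprotein lipase, changed by 7.93 ± 0.22 (adjusted p = 3.59e-12). Fn1, fibronectin, ranged from 119 to 570.1 FPKM (median 471) in MPP:MA9 and from 0.5 to 1.61 FPKM (median 0.885) in MPP, a change of 7.68 ± 0.32 (adjusted p = 1.22e-10), and leukaemia 6 held the 119 FPKM of the lower end. Ifitm6 ranged from 341 to 1918 FPKM (median 509.7) in MPP:MA9 and from 1.43 to 16.1 FPKM (median 2.71) in MPP, a change of 7.08 ± 0.49 (adjusted p = 2.30e-08). Hp, haptoglobin, ranged from 540.4 to 1067 FPKM (median 721) in MPP:MA9 and from 4.99 to 34.1 FPKM (median 12.6) in MPP and changed by 5.74 ± 0.35. The cytoskeletal genes Actb and Tmsb4x and the ferritin gene Ftl1 were among the largest rises in mean FPKM, with changes of 1.30 ± 0.10, 2.36 ± 0.11 and 1.88 ± 0.12.

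The machinery by which myeloid cells sense and kill microbes was higher as a group. All 17 tested Fc, C-type lectin and paired receptors were called higher, with a median of 3.12. Fcer1g, the signalling chain of several Fc receptors, ranged from 1421 to 1647 FPKM (median 1465) in MPP:MA9 and from 75.2 to 121 FPKM (median 109) in MPP, a change of 3.84 ± 0.12 (adjusted p = 8.91e-12). Clec4a2 and Clec7a (Dectin-1) changed by 5.69 ± 0.32 and 4.89 ± 0.27. Of 16 tested Toll-like receptors and adaptors, 13 were called higher and 0 lower (median 2.06). Tlr13, a sensor of bacterial ribosomal RNA, ranged from 43.3 to 131 FPKM (median 77.8) in MPP:MA9 and from 0.15 to 0.55 FPKM (median 0.265) in MPP, a change of 5.93 ± 0.21 (adjusted p = 3.23e-11). Tlr7, a sensor of single-stranded RNA, had a change of 0.80 ± 0.33 (adjusted p = 0.0445), which did not pass the fold threshold. Leukaemia 6, at 4.49 FPKM, was below every MPP sample for Tlr7, and without it the change was 1.14 and called. All 6 tested NADPH oxidase genes were called higher (median 2.79), among them Cybb, the catalytic subunit, which ranged from 286 to 561 FPKM (median 357) in MPP:MA9 and from 2.56 to 7.54 FPKM (median 2.85) in MPP and changed by 6.40 ± 0.22 (adjusted p = 1.92e-11).

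Of 21 tested lysosomal genes, 17 were called higher and 1 lower (median 1.58). Ctsh, a cathepsin, ranged from 214 to 451 FPKM (median 273) in MPP:MA9 and from 8.6 to 17.6 FPKM (median 12.5) in MPP and changed by 4.41 ± 0.21 (adjusted p = 5.77e-10). Of 23 tested chemokine receptors, integrins and selectin ligands, 12 were called higher and 0 lower (median 1.22). Itgam and Itgb2, which pair as the integrin Mac-1, changed by 4.42 ± 0.19 and 4.35 ± 0.13. Of 22 tested cytokine receptors, 12 were called higher and 5 lower (median 1.37), and the higher ones included Csf2ra, the GM-CSF receptor chain, with levels from 161 to 219 FPKM (median 189.8) in MPP:MA9 and from 10.6 to 18.5 FPKM (median 14) in MPP. Of the 8 tested genes of antigens used in the sorts, Kit, Ly6a and Cd34 were called lower and Fcgr3, Fcgr2b, Itgam, Ly6g and Ptprc higher. Ptprc stands for B220, a form of CD45, and its gene level does not tell that form from the others.

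**Figure D3:**
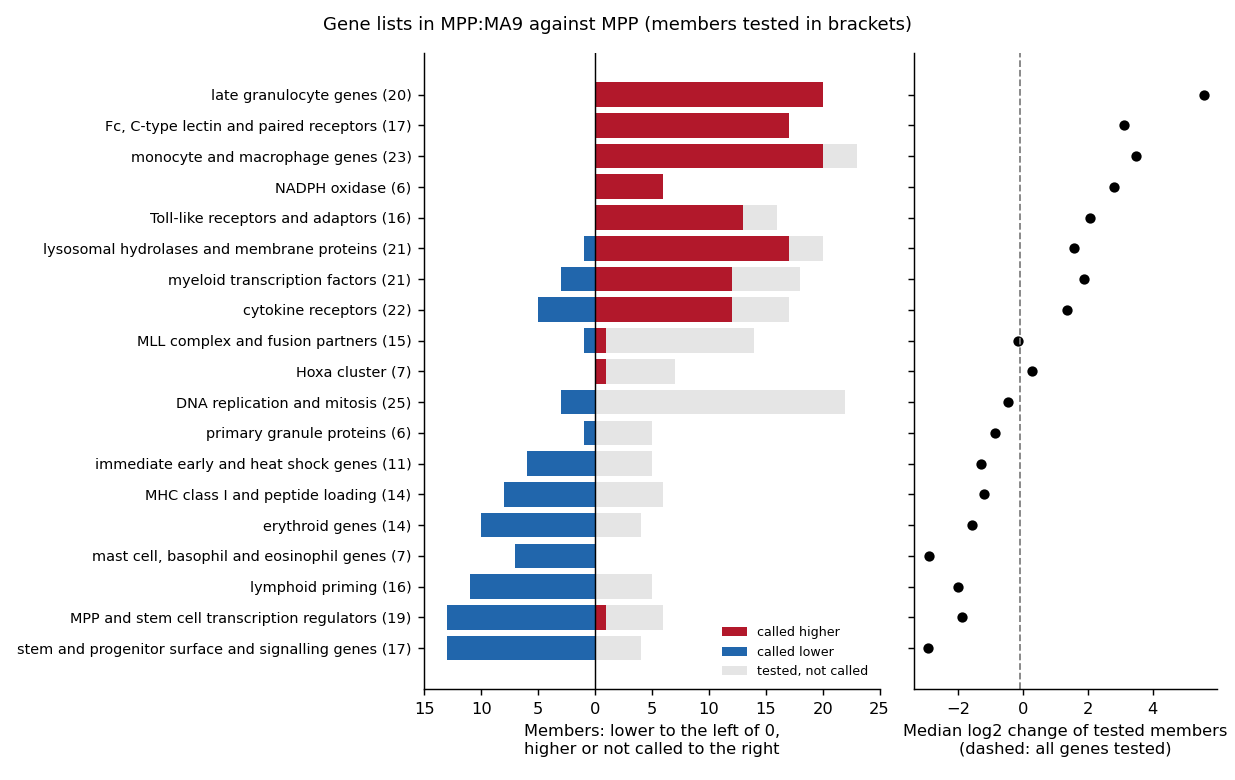
For 19 gene lists, the left panel gives the number of tested members called higher (red), called lower (blue, to the left of 0) and tested but not called (grey), and the right panel the median log2 change, with the median of all tested genes, -0.11, as a dashed line. The lists were chosen for the plot with the results known. Of the 19 drawn, the late granulocyte genes have the highest median (5.56) and the stem and progenitor surface genes the lowest (-2.94), whereas the stefins and cystatins (9.04) and the T and NK cell markers (-3.02) are not drawn.

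The transcription factors of myeloid cells were mostly higher. Of 21 tested, 12 were called higher and 3 lower, with a median of 1.87. Sfpi1, which encodes PU.1, ranged from 236 to 296 FPKM (median 291) in MPP:MA9 and from 58.2 to 72.8 FPKM (median 65.4) in MPP, a change of 2.09 ± 0.09 (adjusted p = 1.68e-10), and its spread was small in both groups. Cebpe, the factor of late granule genes, ranged from 17.6 to 60.5 FPKM (median 25) in MPP:MA9 and from 1.65 to 7.66 FPKM (median 4.7) in MPP, a change of 2.42 ± 0.34 (adjusted p = 2.95e-05), and leukaemia 2 was its highest sample. Cebpb changed by 2.21 ± 0.22 (adjusted p = 1.17e-06). Cebpa, the factor at the entry to the granulocyte and monocyte lineage, had a change of 0.11 ± 0.15 (adjusted p = 0.542). It ranged from 11.4 to 18.2 FPKM (median 15.9) in MPP:MA9 and from 9.04 to 16.6 FPKM (median 14.8) in MPP, so that the groups overlapped. Irf8 and Irf5, interferon regulatory factors of monocytes, changed by 1.87 ± 0.25 and 3.31 ± 0.13, and Klf4 by 2.74 ± 0.37 (adjusted p = 1.93e-05). Gfi1, a transcriptional repressor that granulocyte development needs, had a change of -0.07 ± 0.40 (adjusted p = 0.891). It was at 2.47 and 2.91 FPKM in leukaemias 4 and 6 and from 12.2 to 20.2 FPKM in the others.

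The genes that the fusion is known to keep on were expressed in MPP too. Of 7 tested Hoxa genes, 1 was called higher (14.3%, close to the 13.5% of all tested genes) and 0 lower, with a median change of 0.29. Hoxa9 (chromosome 6, 52173099 to 52181088) ranged from 17.5 to 54 FPKM (median 26) in MPP:MA9 and from 18.6 to 25.2 FPKM (median 23.4) in MPP, and its change was 0.23 ± 0.22 (adjusted p = 0.369). Hoxa7 ranged from 19.2 to 38.1 FPKM (median 22.5) in MPP:MA9 and from 15.4 to 19.1 FPKM (median 17.2) in MPP, so that all leukaemias lay above all MPP samples, with a change of 0.49 ± 0.15 (adjusted p = 0.00979). Hoxa10 was the called member, with levels from 6.47 to 18.8 FPKM (median 10.3) in MPP:MA9 and from 3.89 to 5.14 FPKM (median 4.29) in MPP, a change of 1.07 ± 0.21 (adjusted p = 0.00044). Without leukaemia 1 or 2 its change fell to 1.00 and 0.91 and it was no longer called. Leukaemia 2 had the highest level of 5 of the 7 genes and leukaemia 6 the lowest of 5. Meis1, the Hox cofactor, ranged from 42.8 to 95.5 FPKM (median 52.9) in MPP:MA9 and from 65.8 to 105 FPKM (median 77.9) in MPP, with a change of -0.54 ± 0.18 (adjusted p = 0.0158). Pbx3, a further cofactor, ranged from 5.25 to 59.6 FPKM (median 23.8) in MPP:MA9 and from 2.02 to 3.82 FPKM (median 2.72) in MPP and changed by 2.61 ± 0.44 (adjusted p = 0.000127).

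Of 15 tested genes for the MLL complex and fusion partners, 1 was called higher (Mllt3, above) and 1 lower. These calls were 13.3% of the list, against 27.8% of all tested genes, and the median was -0.15. The lower one was Psip1, which encodes LEDGF, a tether of MLL on chromatin. It ranged from 13.7 to 23.8 FPKM (median 19.3) in MPP:MA9 and from 48 to 73.7 FPKM (median 65.9) in MPP and changed by -1.68 ± 0.14 (adjusted p = 1.16e-07). Mll1 itself had a change of 1.00 ± 0.32 (adjusted p = 0.0149), just under the threshold. It was called without MPP 3 or 5 or leukaemia 1, 3, 5 or 6 (1.03 to 1.14). It was also called with the GC and length correction (1.1584), median-ratio scaling (1.0768), a pseudocount of 0.1 (1.0148) and scaling without mitochondrial genes (1.0022). Mll1 was at 203 and 118 FPKM in leukaemias 2 and 4 and from 46 to 58 FPKM in the other 4. Leukaemias 2 and 4 were thus the 2 highest for both Mll1 and Mllt3. The part of MA9 reads in the values of either gene was not tested.

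Of 12 tested genes of Myb and the Myc network, 2 were called higher and 2 lower, 33.3% of them against 27.8% of all tested genes. Myc ranged from 40.6 to 93.5 FPKM (median 69.8) in MPP:MA9 and from 215 to 284 FPKM (median 258) in MPP, a change of -1.94 ± 0.18 (adjusted p = 4.03e-07). Myb, a factor that MLL leukaemias need, was lower in every leukaemia, from 81.2 to 116 FPKM (median 104) in MPP:MA9 and from 159 to 207 FPKM (median 182) in MPP, but its change of -0.86 ± 0.10 (adjusted p = 3.67e-06) was under the fold threshold. Npm1, the nucleolar chaperone, and Gas5, a growth arrest RNA that hosts snoRNAs, changed by -1.40 ± 0.17 and -1.92 ± 0.11, and the ribosomal gene Rps2 by -1.11 ± 0.18, where 48% of its windows occur elsewhere.

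Of 25 tested replication and mitosis genes, 3 were called lower (12.0%, against 14.3% of all tested genes) and 0 higher, with a median of -0.47. The 3 were Mcm3 and Mcm6, of the replicative helicase, and Tyms, which makes thymidylate, with changes of -1.06 ± 0.20, -1.11 ± 0.17 and -1.05 ± 0.23. Without leukaemia 2 none of them was called, and leaving out any 1 sample gave between 0 and 6 called members. Tyms was also not called with the GC and length correction (-0.9706), with median-ratio scaling (-0.9713) or without MPP 1 (-0.9899), nor Mcm3 with median-ratio scaling (-0.983). In 9 of the 25 genes every leukaemia lay below every MPP sample, against 21.5% of all tested genes, and in 0 every leukaemia lay above. Mki67, the proliferation antigen, ranged from 54.9 to 108 FPKM (median 82.7) in MPP:MA9 and from 96.1 to 129 FPKM (median 111) in MPP, a change of -0.45 ± 0.14 (adjusted p = 0.0136). Of 14 tested genes of the G1 phase, 5 were called higher and 3 lower, 57.1% of them against 27.8% of all tested genes. Cdk4 ranged from 67.7 to 135 FPKM (median 115) in MPP:MA9 and from 339.7 to 393 FPKM (median 364) in MPP and changed by -1.84 ± 0.17 (adjusted p = 3.90e-07). The D cyclins went in opposite directions, with Ccnd2 from 0.89 to 5.3 FPKM (median 1.99) in MPP:MA9 and from 37.4 to 46 FPKM (median 39.7) in MPP, a change of -3.73 ± 0.25 (adjusted p = 1.58e-08), and Ccnd3 from 164 to 258 FPKM (median 177) in MPP:MA9 and from 38.7 to 53.8 FPKM (median 49.6) in MPP, a change of 1.92 ± 0.12 (adjusted p = 7.70e-09). The kinase inhibitors Cdkn2c and Cdkn1a changed by 2.92 ± 0.17 and 1.52 ± 0.28.

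Genes of DNA methylation and Polycomb changed in both directions. Of 11 tested genes of DNA methylation and hydroxymethylation, 3 were called higher and 4 lower. Dnmt3b, a methyltransferase, ranged from 1.77 to 5.14 FPKM (median 3.46) in MPP:MA9 and from 30.6 to 46.5 FPKM (median 35.7) in MPP, a change of -3.05 ± 0.18 (adjusted p = 4.58e-09). Of Tet1 and Tet2, which oxidise methylated cytosine, Tet1 changed by -3.50 ± 0.38 (adjusted p = 2.42e-06) and Tet2 by 1.30 ± 0.09 (adjusted p = 2.84e-08). Of 17 tested Polycomb genes, 1 was called higher and 4 lower, 29.4% of them, close to the 27.8% of all tested genes. Ezh2, the methyltransferase, and Cbx2 changed by -1.14 ± 0.18 and -2.25 ± 0.14, and Jarid2 was the 1 called higher, by 1.31 ± 0.09. Without leukaemia 2 Ezh2 had a change of -0.99 and was not called.

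Genes of the erythroid, mast cell and megakaryocyte lineages were lower in part. Of 14 tested erythroid genes, 10 were called lower and 0 higher (median -1.58), and without MPP replicate 1 or with all 8 groups in 1 fit 6 were. In 6 of the 14 every leukaemia lay below every MPP sample, against 21.5% of all tested genes. The erythroid genes summed to 118, 444, 42.8, 118, 37.9 and 1032 FPKM in leukaemias 1 to 6 and to between 341 and 1934 FPKM in MPP, so that leukaemias 2 and 6 lay within the MPP range, and leukaemia 6 was the highest of the 6 for 10 of the genes. Car2, carbonic anhydrase, ranged from 0.09 to 5.59 FPKM (median 0.84) in MPP:MA9 and from 108 to 276 FPKM (median 201) in MPP, a change of -6.44 ± 0.40 (adjusted p = 7.75e-09). Gata1, the erythroid and megakaryocyte factor, did not exceed 0.16 FPKM in a leukaemia and was at 1.09 to 5.07 FPKM (median 1.97) in MPP. All 7 tested mast cell, basophil and eosinophil genes were called lower (median -2.9). The list summed to between 2.92 and 68.4 FPKM in MPP:MA9 and between 153 and 1625 FPKM in MPP. A member could pass the filter through its MPP level alone, so the direction of these calls is no independent result. Prss34, a basophil protease, ranged from 0 to 0.36 FPKM (median 0) in MPP:MA9 and from 23.9 to 92.8 FPKM (median 42.1) in MPP, a change of -5.37 ± 0.27 (adjusted p = 9.55e-10). Pf4, platelet factor 4, changed by -1.21 ± 0.35 (adjusted p = 0.00764), and the groups overlapped. Of 8 tested megakaryocyte genes, 5 were called lower and 1 higher. The shares called were 75% for megakaryocyte and 71.4% for erythroid genes, against 27.8% of all tested genes.

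Transcripts of immunoglobulin genes and of B cell marker genes were present in the MPP samples, and the cells they came from were not tested. The table holds 246 immunoglobulin genes, a group that was chosen after its values were seen. Of the 38 tested, 24 were called lower and 0 higher, against 14.3% lower and 13.5% higher of all tested genes. A member could pass the filter through its MPP level alone, so the direction of these calls is no independent result. Igkc, the kappa constant gene (chromosome 6, 70676429 to 70676751), gave the largest fall among genes that separated the groups. Its levels in MPP replicates 1 to 6 were 1420, 5158, 10316, 3199.5, 4001 and 83.7 FPKM, against 0.56 to 2.45 FPKM (median 1.56) in MPP:MA9, a change of -9.77 ± 0.87 (adjusted p = 3.09e-07). Immunoglobulin genes took 0.28%, 0.942%, 1.84%, 0.639%, 0.788% and 0.0456% of the summed FPKM in the same 6 MPP samples and from 0.00924% to 0.0511% in MPP:MA9. MPP replicate 6 was thus the only one within the range of the leukaemias. Igj, the joining chain of secreted antibody, changed by -4.68 ± 0.60 (adjusted p = 1.23e-05), and Ighm by -2.15 ± 0.49 (adjusted p = 0.00155). Of the 5 tested B cell markers 2 were called lower, and the list summed to between 73.8 and 446 FPKM in MPP:MA9 and between 292 and 2031 FPKM in MPP. Pax5, a factor of B-lineage commitment, was at 0 in all leukaemias and reached 1.69 FPKM in MPP. The sort of the study left out cells with B and T lineage antigens. The part of B-lineage cells in the falls of the lymphoid genes was not tested.

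Markers of further cell types were summed in each sample. The 11 T and NK cell markers summed to between 0.99 and 55.4 FPKM in MPP:MA9 and between 142 and 238 in MPP, and 2 of 3 tested were called lower. These too could pass the filter through their MPP level alone. The 11 endothelial and stromal markers summed to between 20.2 and 66.8 FPKM in MPP:MA9 and between 49.9 and 57.3 in MPP. Of 6 tested dendritic cell markers, 2 were called lower and 0 higher, 33.3% of them against 27.8% of all tested genes. Their parts in the results were not tested.

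Immediate early genes, which respond within minutes to stress and handling, differed between the groups and between MPP replicates. Of 11 tested immediate early and heat shock genes, 6 were called lower and 0 higher (median -1.3). Fosb was at 70.8, 27.2, 124, 45.6, 12.9 and 10.7 FPKM in MPP replicates 1 to 6 and at 0.11 to 2.18 FPKM (median 0.39) in MPP:MA9. Jun changed by -3.67 ± 0.35 (adjusted p = 5.52e-07). Fos and Egr1 changed by -2.32 ± 0.58 and -2.27 ± 0.65 and overlapped between the groups. The part of cell handling in the comparison was not tested.

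Genes of antigen presentation were lower in part. Of 14 tested genes of MHC class I and peptide loading, 8 were called lower and 0 higher (median -1.2). B2m, the shared light chain, ranged from 999.9 to 2493 FPKM (median 1489.5) in MPP:MA9 and from 2969.9 to 3617 FPKM (median 3416) in MPP, a change of -1.18 ± 0.18 (adjusted p = 4.52e-05). H2-K1 changed by -1.42 ± 0.17 (adjusted p = 5.81e-06), whereas H2-D1, the other classical heavy chain, had a change of 0.46 ± 0.15 (adjusted p = 0.0152). H2-Q7 changed by -3.89 ± 0.43, with 40% of its windows shared. Nlrc5, the transactivator of class I genes, ranged from 3.02 to 5.49 FPKM (median 3.75) in MPP:MA9 and from 11.4 to 27.6 FPKM (median 17.6) in MPP and was called lower. Of 9 tested class II genes, 1 was called higher and 3 lower, and Cd74, the invariant chain, had a change of -0.35 ± 0.40 (adjusted p = 0.456). Of 17 tested interferon-induced genes, 2 were called higher and 7 lower. The shares called were 44.4% for class II and 52.9% for interferon-induced genes, against 27.8% of all tested genes.

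Of 13 tested chemokines and cytokines 5 were called higher and 3 lower, of 17 eicosanoid genes 7 and 6, and of 9 iron handling genes 5 and 1. The shares called were 61.5%, 76.5% and 66.7%, against 27.8% of all tested genes. Metabolic and survival genes changed in part. Of 21 tested glycolysis genes, 8 were called higher and 4 lower (median 0.55). Eno1, enolase, ranged from 315 to 613 FPKM (median 486) in MPP:MA9 and from 136 to 182 FPKM (median 167) in MPP and changed by 1.47 ± 0.15 (adjusted p = 1.27e-06), and Slc16a3, a lactate transporter, changed by 3.05 ± 0.18 (adjusted p = 5.34e-09). The isocitrate dehydrogenases went in opposite directions. Idh1 of the cytosol changed by 1.73 ± 0.17 (adjusted p = 8.47e-07) and Idh2 of the mitochondrion by -1.91 ± 0.18 (adjusted p = 5.52e-07). mt-Rnr1, a mitochondrial ribosomal RNA, had the largest fall in mean FPKM. It ranged from 26129 to 41645 FPKM (median 32379) in MPP:MA9 and from 50260 to 111890 FPKM (median 70359) in MPP and changed by -1.18 ± 0.19 (adjusted p = 9.53e-05). When genes with low values were kept, limma gave a change of -1.1754 and an adjusted p of 0.324, so that it was not called. The tubulin gene Tuba1b changed by -1.01 ± 0.20, with 69% of its windows shared, and it was not called without MPP 1, 2, 3 or 4 or leukaemia 2 or 3 (-0.8523 to -0.9993). Of 13 tested BCL2 family genes, 5 were called higher and 1 lower, 46.2% of them against 27.8% of all tested genes. Pmaip1 (Noxa) and Bmf, which promote apoptosis, changed by 3.00 ± 0.18 and 2.87 ± 0.26, and Bcl2 itself was the 1 called lower, with a change of -1.26 ± 0.22.

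A small share of genes varied widely among the 6 leukaemias. Over 5929 genes with a symbol and a mean of at least 10 FPKM in MPP:MA9, the median SD of log2(FPKM + 1) was 0.238 in MPP:MA9, and the SD exceeded 1 in 138 genes. These genes were chosen by their level in MPP:MA9, so their SD is not set against that in MPP. The largest SDs were those of 4 snoRNAs (snoU6-77, SNORA67, SNORA17 and SNORA48), which were at 0 in some samples, and of Mab21l2, Mecom, Vill and Ngp. Mab21l2 was at 89.5 FPKM in leukaemia 6 and at most 0.31 FPKM in the other 5. Vill, a villin relative, was at 0.31 and 0 FPKM in leukaemias 2 and 6 and from 22.1 to 33.9 FPKM in the others, with 13.2 to 17.2 FPKM (median 14) in MPP.

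Granulocyte genes and replication genes set single leukaemias apart. Leukaemia 2 had the highest level of all 20 late granulocyte genes and the lowest level of all 25 replication and mitosis genes among the 6. Its late granulocyte genes summed to 66651 FPKM and its replication genes to 599. In leukaemias 1, 3, 4, 5 and 6 the late granulocyte sums were 9007, 8202, 1507, 32416 and 7534 FPKM, and the replication sums 1473, 967, 1172, 1203 and 1298 FPKM. Leukaemia 4 was the lowest for 16 of the 20 late granulocyte genes. It also held the highest Flt3, Cd34, Satb1, Il7r, Rag2 and H2-Q7 of the 6. Leukaemia 2 also had the lowest relative depth, 0.691, of the 12 samples, and the part of depth was not tested. These are 6 samples in no order, and no test was made.

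**Figure D4:**
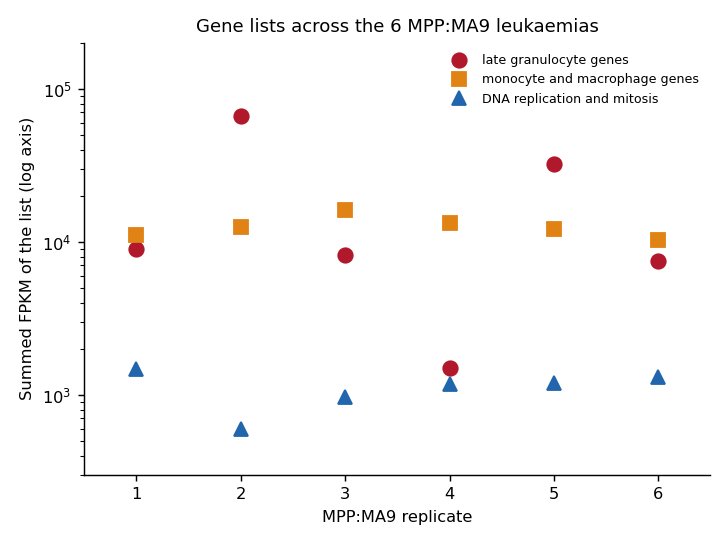
Summed FPKM (log axis) of the late granulocyte genes (red circles), the monocyte and macrophage genes (orange squares) and the DNA replication and mitosis genes (blue triangles) in each of the 6 MPP:MA9 leukaemias. Leukaemia 2 has the highest granulocyte sum (66651) and the lowest replication sum (599), leukaemia 4 the lowest granulocyte sum (1507), and the monocyte sums stay between 10249 and 16153.

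To ask where the change from MPP to MPP:MA9 differs from the change in the other cells of origin, the 3 other leukaemia groups of this model were taken with their normal cells: STHSC:MA9 (n = 3) and short-term stem cells (ST-HSC, n = 5), CMP:MA9 (n = 4) and common myeloid progenitors (CMP, n = 5), and GMP:MA9 (n = 6) and granulocyte-macrophage progenitors (GMP, n = 5). By the study's methods these were made in the same way. The difference between the MPP change and the mean of the other 3 changes was tested in 1 fit of 12600 genes and 40 samples. It was called in 446 genes (3.54%), positive in 170 (1.35%) and negative in 276 (2.19%). Against single origins, the MPP change differed from the ST-HSC change in 268 genes (2.13%; 1.33% positive and 0.794% negative), from the CMP change in 377 (2.99%) and from the GMP change in 1841 (14.6%; 5.24% positive and 9.37% negative). Scaling without mitochondrial genes moved the split against ST-HSC from 168 positive and 100 negative genes to 205 and 66. It moved that against GMP from 660 and 1181 to 454 and 1539, where the median difference of all genes went from -0.07 to -0.27. With median-ratio scaling the GMP split was 779 and 1003 (median 0.016), and with the GC and length correction 748 and 906 (median 0.034). The CMP split went from 192 and 185 to 159 and 205 with median-ratio scaling. With the GC and length correction it was 163 and 210. The directions of these splits thus depended on the scaling. These comparisons share the MPP samples.

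The difference lay mainly between the normal cells, more often so for negative than for positive calls. In 376 of the 446 called genes (84.3%) the MPP level stood further from the mean of the other normal cells than the MPP:MA9 level from the mean of the other leukaemias, against 53.2% of all 12600 genes. The median size of that distance in the 446 genes was 1.24 on the log2 scale between normal cells and 0.209 between leukaemias. Of the 276 genes called negative this held for 260 (94.2%), with medians of 1.45 and 0.137. Of the 170 genes called positive it held for 116 (68.2%), with medians of 0.959 and 0.449. These are descriptions, since the same samples chose the genes.

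Part of the stem and lymphoid genes fell further from MPP than on average from the other cells, and most of their calls against a single origin were made against GMP. Of the 19 stem cell regulators 6, of the 17 surface genes 7 and of the 14 lymphoid priming genes tested here 7 had a called negative difference from the mean of the others, and 0 had a positive one. Against the GMP change the negative calls were 11, 13 and 9. Against the CMP change they were 1, 5 and 3, and against the ST-HSC change 0, 0 and 3, with 1 surface gene called positive there. Dntt changed by -7.91 ± 0.26 from MPP, -4.72 ± 0.33 from ST-HSC, -4.94 ± 0.30 from CMP and -0.26 ± 0.27 from GMP. Its mean level was 269 ± 29.4 FPKM (SD) in MPP, 34.2 ± 25.6 in ST-HSC, 31.6 ± 13.9 in CMP and 0.21 ± 0.207 in GMP, and at most 0.12 in each leukaemia group. The difference from the mean of the others was -4.60 ± 0.31 (adjusted p = 1.10e-12). Hlf and Ly6a had differences of -2.91 ± 0.31 and -2.51 ± 0.51. Hlf and Ly6a differed from the CMP change, by -3.03 ± 0.39 (adjusted p = 1.91e-06) and -3.57 ± 0.65 (adjusted p = 0.000452), and no call was made against the ST-HSC change, at -0.93 ± 0.41 (adjusted p = 0.214) and -0.56 ± 0.68 (adjusted p = 0.703). Flt3 fell from MPP and rose from GMP, by -1.76 ± 0.46 and 3.16 ± 0.48, and the difference from the mean of all others was -2.38 ± 0.55 (adjusted p = 0.00387). Il7r, Rag2, Sox4, Cd27, Robo4 and Gimap6 had called negative differences between -2.44 and -1.48.

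The Hoxa genes and Meis1 had unlike levels in the normal cells. The mean Hoxa9 level was 28.9 ± 13.5 FPKM (SD) in MPP:MA9, 22.4 ± 9.14 in STHSC:MA9, 28.6 ± 6.91 in CMP:MA9 and 28.2 ± 10.2 in GMP:MA9. In the normal cells it was 22.8 ± 2.76 in MPP, 12.3 ± 3.68 in ST-HSC, 8.21 ± 1.75 in CMP and 3.01 ± 0.554 in GMP. Hoxa9 changed by 0.23 ± 0.24 from MPP and by 2.78 ± 0.25 from GMP, and the difference from the mean of the others was -1.52 ± 0.28 (adjusted p = 0.000343). Of the 7 tested Hoxa genes 4 had a called negative difference from that mean, all 7 from the GMP change, 2 from the CMP change and 0 from the ST-HSC change. Hoxa10 differed by -1.74 ± 0.28 (adjusted p = 4.80e-05). Meis1 differed by -1.05 ± 0.31 (adjusted p = 0.0253), and this call was lost without leukaemia 4 or 6 or without MPP replicate 2 or 5 (-0.98 to -1.01). It was also lost with the GC and length correction, both without the replicate block (-0.9782) and with it (-0.9552).

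Some monocyte genes rose further from MPP than on average from the other cells, and most of their calls against a single origin were made against GMP. Of the 23 tested, 5 had a called positive difference from the mean of the others, 12 from the GMP change (and 1 a negative one), 1 from the CMP change and 2 from the ST-HSC change. Of the 17 Fc, C-type lectin and paired receptors 4 were called against the mean of the others, 13 against GMP and 0 against CMP or ST-HSC, and of the 6 NADPH oxidase genes 1, 5 and 0. Ccr2 had a difference of 2.07 ± 0.50 (adjusted p = 0.00519) and F13a1 of 2.14 ± 0.49 (adjusted p = 0.00364). The normal levels of F13a1 were 13.2 ± 7.91 FPKM (SD) in MPP and 145 ± 31.4 in GMP, and the leukaemia levels 223 ± 48.4 in MPP:MA9 and 226 ± 70.2 in GMP:MA9. Cybb, Hp, Ctsh, Csf2ra, Fcer1g, Clec4a2, Clec7a, Ly6c2 and Lgals3 had called positive differences between 1.10 and 2.06. Of these and Ccr2 and F13a1, Lgals3 was also called against ST-HSC, and the others against no single origin but GMP. The calls were lost for Clec4a2 without leukaemia 2 (1.74) or with a pseudocount of 0.1 (2.2025), for Hp without MPP replicate 5 (1.81) and for Csf2ra with scaling without mitochondrial genes (1.0584). That of Lgals3 was lost without MPP replicate 3 or 5 or leukaemia 6 (1.29 to 1.31), with no filter (1.3383) and with the replicate block (1.284). Of the late granulocyte genes only Mmp8 was called against the mean of the others, by 3.18 ± 1.03 (adjusted p = 0.0456), and this call was lost in 15 alternatives, among them those without any 1 of MPP replicates 1 to 5 or leukaemias 2 to 5 (2.68 to 3.36). Tlr7 went the other way, with -1.92 ± 0.39 (adjusted p = 0.00113).

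**Figure D5:**
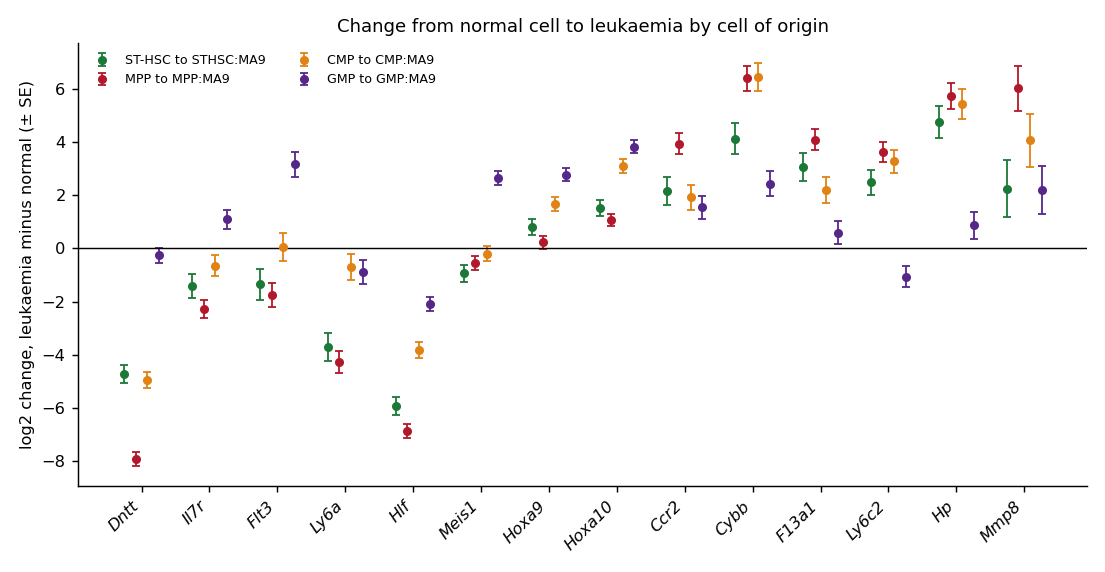
log2 change from the normal cell to its leukaemia (y axis, points with SE bars) for 14 genes and 4 cells of origin, with ST-HSC in green, MPP in red, CMP in orange and GMP in purple. MPP gives the deepest fall for Dntt, Il7r, Ly6a and Hlf, GMP the largest rise for Flt3, Meis1, Hoxa9 and Hoxa10, and MPP the largest rise for Ccr2, F13a1 and Mmp8.

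Genes of other lineages differed too. Pf4 had the largest positive difference, 5.06 ± 0.57 (adjusted p = 3.87e-08), with mean normal levels of 467 ± 370.1 FPKM (SD) in ST-HSC, 151 ± 32.3 in CMP and 2.88 ± 1.59 in MPP. Gata1 likewise had a positive one, 1.41 ± 0.30 (adjusted p = 0.00183), which was not called with a pseudocount of 0.1 (1.5292). The largest negative differences were Igkv15-103, -6.09 ± 1.47 (adjusted p = 0.00549), Igkc, -5.99 ± 1.28 (adjusted p = 0.0016), Dntt, Igj, -3.39 ± 0.77 (adjusted p = 0.00324), and Iglv1, -3.15 ± 0.95 (adjusted p = 0.0298). For Igkc the ST-HSC also held 3754 ± 4099 FPKM (SD), and no call was made against the ST-HSC change, -1.56 ± 1.71 (adjusted p = 0.664). Atp5g2, Etohi1 and Pram1 had positive differences of 3.29 ± 0.95, 2.81 ± 0.44 and 2.58 ± 0.56, and between 65% and 86% of their windows occur in other genes. Cdkn2c, a kinase inhibitor, rose further from MPP, with 1.27 ± 0.36 (adjusted p = 0.0206), and its mean was 91.6 ± 6.61 FPKM (SD) in MPP:MA9, 92.2 ± 43.2 in STHSC:MA9, 27.7 ± 18.4 in CMP:MA9 and 43.4 ± 26.6 in GMP:MA9. Cbx2 and Prss34 had negative differences of -1.05 ± 0.18 and -2.18 ± 0.55. The calls were lost for Cbx2 without leukaemia 2 (-0.97), for Cdkn2c without MPP replicate 3 (1.15), for Atp5g2 without MPP replicate 3 or 5 (2.92 and 2.74) and for Iglv1, which is listed at 0 in all MPP:MA9 samples, without MPP replicate 3, 4 or 5 (-2.68 to -2.93).

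The sequence make-up of the called genes was close to that of all tested genes. The median GC content of their merged exons was 50.9% for genes called higher, 49.9% for those called lower and 49.6% for all tested, and the median exon length was 3294, 3311 and 3450 bases. A value was found for 12150 of the 12663 genes.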

How the data were processed

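Per the labels and the study's methods, RNA of each mouse was amplified (NuGEN Ovation RNA-Seq V2), sequenced on a HiSeq 2000 and quantified with RSEM on build mm9. The RSEM version, the strand setting and the annotation are not given in the sources used here. The authors deposited 1 table of FPKM values, of whose 68 columns 49 matched a sample by name and 19 matched none and were not used. FPKM was the unit of all values, so no count test was run. Total depth is unknown, and only relative depth was read from the steps of low values.

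All genes that averaged 1 FPKM or more across both groups were fitted as log2(FPKM + 1) with limma 3.58.1 (trend) in R 4.3.3, with Benjamini-Hochberg adjustment over all tested genes. A call needs an adjusted p below 0.05 and a log2 change above 1 in size. A fold on this scale understates the change of low genes. Differences between origins were contrasts in 1 fit of 8 groups. P-values measure the spread between mice, and no batch is labelled. On simulated data the main fit called 199 of 200 genes changed 8-fold and 87 of 200 changed 2-fold (154 passed the adjusted p). The difference fit called 195 and 79 (135 passed the adjusted p). A 2-fold change has a log2 size of 1, which is the call threshold itself. The median estimates of the 2-fold genes were 0.999 and 0.994 in size, so the fold threshold alone removed many of them. Of the 2-fold counts, only those by adjusted p, 154 and 135, do not depend on that threshold.

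Named genes were the 12 largest rises and falls that separated the groups, the 8 largest by mean FPKM, leading members of 41 gene lists, the 5 largest differences between origins in each direction, the 8 largest spreads among leukaemias, the genes next to the filter, and Mecom. Members and lists were chosen with earlier results of these data known, and the comparison's gene lists are no independent evidence. Gene positions and shared 31-base windows come from GENCODE M1 on NCBIM37. Alternatives changed the pseudocount (0.1), the filter, the scaling (median ratio, or without mitochondrial genes), GC content and length (spline with 5 degrees of freedom), the replicate block, the samples in the fit, the fold threshold and each replicate in turn.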

Additional observations from a re-analysis of the deposited data

Results flagged for a closer look

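In 33 of 288 groups of 6 samples examined, 1 sample stood apart from the other 5 by Dixon's ratio, its gap to the nearest sample over the whole range of log2(FPKM + 1), above the critical value for 6 samples. Chance gives about 1 in 20 groups.

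MPP replicate 2 was the lowest for Ccnd3 (ratio 0.673, 38.7 FPKM). MPP replicate 3 was the highest for Cebpb (ratio 0.670, 1.26 FPKM). MPP replicate 3 was the lowest for Ezh2 (ratio 0.821, 63.7 FPKM). MPP replicate 5 was the highest for Stfa2 (ratio 0.686, 3.36 FPKM), Stfa2l1 (ratio 0.742, 11.5 FPKM) and BC100530 (ratio 0.840, 4.13 FPKM). MPP replicate 5 was the lowest for Ly6c2 (ratio 0.630, 33.4 FPKM), Elane (ratio 0.701, 42.7 FPKM) and Tuba1b (ratio 0.660, 1139.9 FPKM). MPP replicate 6 was the highest for Ifitm6 (ratio 0.643, 16.1 FPKM) and Cybb (ratio 0.700, 7.54 FPKM). MPP replicate 6 was the lowest for Igkv15-103 (ratio 0.638, 0 FPKM). MPP:MA9 replicate 1 was the highest for Gata1 (ratio 0.671, 0.16 FPKM) and Igj (ratio 1.000, 0.11 FPKM). MPP:MA9 replicate 2 was the highest for Meis1 (ratio 0.706, 95.5 FPKM), Kit (ratio 0.638, 2.04 FPKM), Ly6a (ratio 0.792, 17.2 FPKM), Mmp8 (ratio 0.636, 749 FPKM), Fpr2 (ratio 0.627, 581 FPKM), Ifitm6 (ratio 0.691, 1918 FPKM), Pram1 (ratio 0.692, 287 FPKM) and Ccnd3 (ratio 0.696, 258 FPKM). MPP:MA9 replicate 2 was the lowest for Csf1r (ratio 0.642, 67 FPKM) and Mcm6 (ratio 0.632, 29.7 FPKM). MPP:MA9 replicate 3 was the highest for Prss34 (ratio 0.720, 0.36 FPKM). MPP:MA9 replicate 4 was the highest for Il7r (ratio 0.871, 3.09 FPKM), Rag2 (ratio 0.694, 0.58 FPKM), Il12a (ratio 0.687, 24 FPKM) and H2-Q7 (ratio 0.715, 67.2 FPKM). MPP:MA9 replicate 6 was the highest for Fosb (ratio 0.647, 2.18 FPKM) and Mab21l2 (ratio 0.946, 89.5 FPKM). MPP:MA9 replicate 6 was the lowest for Fn1 (ratio 0.829, 119 FPKM) and Tlr7 (ratio 0.678, 4.49 FPKM).

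The change from MPP to MPP:MA9 differed from the mean change of the other 3 origins in limma, with an adjusted p below 0.05 and a size above 1, in 170 genes upwards and 276 downwards. It differed from the CMP change in 192 and 185 genes, from the ST-HSC change in 168 and 100, and from the GMP change in 660 and 1181. Among the genes named here the differences from that mean on the log2 scale were positive for Mmp8 (3.18), Ccr2 (2.07), F13a1 (2.14), Lgals3 (1.34), Ly6c2 (2.06), Cybb (2.06), Hp (2.04), Clec4a2 (2.02), Clec7a (1.80), Fcer1g (1.32), Pram1 (2.58), Csf2ra (1.10), Ctsh (1.82), Cdkn2c (1.27), Gata1 (1.41), Pf4 (5.06), Atp5g2 (3.29) and Etohi1 (2.81). They were negative for Hlf (-2.91), Myct1 (-1.13), Mycn (-1.19), Erg (-1.10), Meis1 (-1.05), Ly6a (-2.51), Flt3 (-2.38), Procr (-1.55), Esam (-1.04), Robo4 (-1.78), Cd27 (-1.48), Gimap6 (-2.44), Rgs1 (-1.83), Dntt (-4.60), Il7r (-1.95), Rag2 (-1.82), Sox4 (-1.54), Il12a (-1.64), Ly6d (-1.71), Tlr7 (-1.92), Hoxa9 (-1.52), Hoxa10 (-1.74), Cbx2 (-1.05), Prss34 (-2.18), Igkc (-5.99), Igj (-3.39), Igkv15-103 (-6.09) and Iglv1 (-3.15). Esam and Iglv1 were listed at 0 in all 6 MPP:MA9 samples, so that their values are differences on the log2(FPKM + 1) scale and no folds. The calls were lost for Rgs1 without MPP replicate 1 (-1.6075) or 3 (-1.5256) and with a pseudocount of 0.1 (-2.0024), and for Procr with that pseudocount (-1.5784). They were lost for Esam without MPP replicate 5 (-0.9618), with median-ratio scaling (-0.9714) and with scaling without mitochondrial genes (-0.9688), and for Erg without MPP:MA9 replicate 4 (-0.9886).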

How the results depend on the processing

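Over all alternatives, 956 counts stayed within 1.5 times their value and 18 did not. Of the named genes' changes between MPP:MA9 and MPP, 2861 values kept direction and call, 14 gained a call, 19 lost one and 6 changed sign, and of the differences between origins 828 kept their call and 46 lost it. With no fold threshold 3533 genes were called higher and 4501 lower. With a pseudocount of 0.1 they were 1947 and 2210, and with median-ratio scaling 1836 and 1634. With the GC and length correction they were 1707 and 1638 of 12150 genes tested. Against the ST-HSC change, 59 genes were called lower with a pseudocount of 0.1 and 66 with scaling without mitochondrial genes, where the higher share of calls went from 62.7% to 75.7%. Against the GMP change that share went from 35.8% to 22.8%, but to 43.7% with median-ratio scaling and 45.2% with the GC and length correction. The erythroid genes called lower were 6 with 8 groups in 1 fit, the replication genes 1 with median-ratio scaling and the chemokines and cytokines 1 with no filter.

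Leaving out 1 replicate gave 1670 to 1760 genes higher and 1684 to 1887 lower, and 133 to 181 and 255 to 304 for the difference from the other origins. It gave 3 to 5 class II genes lower (5 without MPP 5 or MPP:MA9 2), 6 to 12 erythroid genes (6 without MPP 1), 0 to 6 replication genes (0 without MPP:MA9 2, 5 without MPP:MA9 4, 6 without MPP:MA9 1 or 6), 1 to 4 chemokines and cytokines (1 without MPP 1, MPP 3 or MPP:MA9 2) and 2 to 5 mitochondrially encoded genes (5 without MPP 4). Without 1 replicate the log2 change of Cebpa ran from -0.0041 to 0.182, of Gfi1 from -0.2861 to 0.2357, of Mab21l2 from -0.2039 to 1.0876 and of Vill from -1.0098 to 0.0148. Signs turned for Cebpa without MPP 3 (-0.0041), for Gfi1 with median-ratio scaling (0.0033) and without MPP:MA9 4 (0.2357) or 6 (0.2012), and without MPP:MA9 6 for Mab21l2 (-0.2039) and Vill (0.0148). The causes were not tested.

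Samples of both groups share replicate numbers, but the correlations of their deviations were between -0.003134 and 0.1163, and only number 1 correlated best with itself, so the numbers were not taken as a pairing. With the replicate block 1718 genes were called higher and 1816 lower, and 165 and 266 for the difference from the other origins. Total read numbers are unknown, so no limit from depth can be given for genes near 0.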
